A study of Homo sapiens with 22 samples.

Results

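The RNF genes encode RING finger proteins, most of them E3 ubiquitin ligases, and their labelled transcripts were followed through a chase in HEK293T cells with and without knockdown of ZNF598. The family was taken as the protein-coding genes whose symbol is RNF followed by a number and at most 1 letter. Of 84 such genes, 60 reached a mean of 1 CPM (the count scaled to library size) over the libraries of 0 to 10 h and were analysed, among 10725 protein-coding genes that did so. Each gene was represented by its protein-coding transcript with the highest mean count. The lowest of those kept were RNF182 at 1.31 CPM, RNF44 at 1.33 CPM and RNF144B at 1.36 CPM, and the highest of the 24 left out were RNF152 at 0.813 CPM, RNF43 at 0.782 CPM and RNF122 at 0.725 CPM.

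Ubiquitin is passed from an activating enzyme (E1) to a conjugating enzyme (E2) and then to a substrate chosen by a ligase (E3). A RING finger is a zinc-binding fold that holds the loaded E2 close to the substrate, and in RING-between-RING ligases the ubiquitin first moves to a cysteine of the ligase itself. RNF proteins act on histones, ribosomes, membrane proteins and signalling adaptors, and ZNF598, the target of the knockdown, is itself a RING-type ligase that marks the small subunits of collided ribosomes.

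Cells of the human embryonic kidney line HEK293T, which carries the SV40 large T antigen, held a control hairpin (shControl) or hairpins directed at ZNF598 (shZNF598). In both populations bromouridine (BrU) was supplied at 150 µM over 24 h so that new RNA carried the label, and after its removal the labelled RNA was collected with an antibody at 0, 2 and 4 h, at 6 and 10 h and at 24 h of chase (BRIC-Seq). The 22 libraries formed 12 groups, with 2 libraries per group from 0 to 10 h and 1 per group at 24 h. The vector of the hairpins, and whether either population is a clone, are not given in the sources used here, nor is whether the paired libraries came from separate cultures, so p-values measure the spread between these libraries, which may be technical.

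The library totals were 52352359 to 96963584 counts over 0 to 10 h, and 21220829 (shControl) and 40157613 (shZNF598) at 24 h. ZNF598 itself was at 4.05 to 8.55 CPM in the shControl libraries and at 0.419 to 1.07 CPM in the shZNF598 libraries of 0 to 10 h, a log2 difference of −3.05 ± 0.09 (SE, edgeR quasi-likelihood test, adjusted p = 1.17e-18). Of the markers of this line, VIM (130.5 CPM), LIN28B (28.0 CPM), KRT8 (13.5 CPM), KRT18 (12.3 CPM), INA (12.2 CPM), NEFL (7.05 CPM) and NEFM (1.31 CPM) were present and PAX2 was near 0 (0.0415 CPM). The blood, liver and endothelial markers PTPRC, CD3E, ALB and PECAM1 were at 0 to 0.0107 CPM, and the fibroblast marker COL1A1 was at 1.002 CPM. The 2 shControl libraries of 0 h were the least alike pair, with a correlation of log2 CPM of 0.974 against at least 0.987 in the other pairs.

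Member transcripts spanned a mean of 1.31 to 81.7 CPM, with a median of 6.61 CPM, and rested on 18 to 8303 counts per library up to 10 h. Per kilobase of transcript, RNF187, a coactivator of AP-1, had the highest level at 22.2 CPM per kb. It was followed by RNF40, which ubiquitinates histone H2B together with RNF20, at 15.4 CPM per kb, by the lysosomal ligase RNF167 at 14.3 CPM per kb and by the membrane-anchored ligase RNF5 at 13.7 CPM per kb. RNF217 (0.252 CPM per kb), RNF24 (0.256 CPM per kb) and RNF144B (0.271 CPM per kb) had the lowest. Only reads that mapped to 1 place in the genome were kept, so genes with near copies, such as RNF5 with its pseudogene RNF5P1, may have lost reads. Reads that fit several isoforms of a gene count in each of them, so the isoforms of 1 gene are not independent.

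Labelled RNF transcripts mostly declined faster than the bulk of the labelled RNA. The rate was measured as a slope of log2 CPM per hour over 0 to 10 h, scaled so that 0 is the behaviour of the bulk and not an absence of decay. In shControl cells 48 of the 60 members had a slope below 0 at an adjusted p under 0.05, where 52.5% of all protein-coding genes did. Another 8 had a slope above 0, where 25.4% of all protein-coding genes did, and 4 (RNF25, RNF215, RNF40 and RNF157) passed in neither direction. The median slope was −0.143 per hour over the members and −0.0575 per hour over the 10725 protein-coding genes. Scaling by total counts in place of TMM lowers every slope by about 0.0702 per hour in shControl and 0.063 per hour in shZNF598, which gives 53 members below 0 and 4 above in shControl, and 54 below and 2 above in shZNF598, and turns RNF10 and RNF141 to below 0 in shControl.

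**Figure D1:**
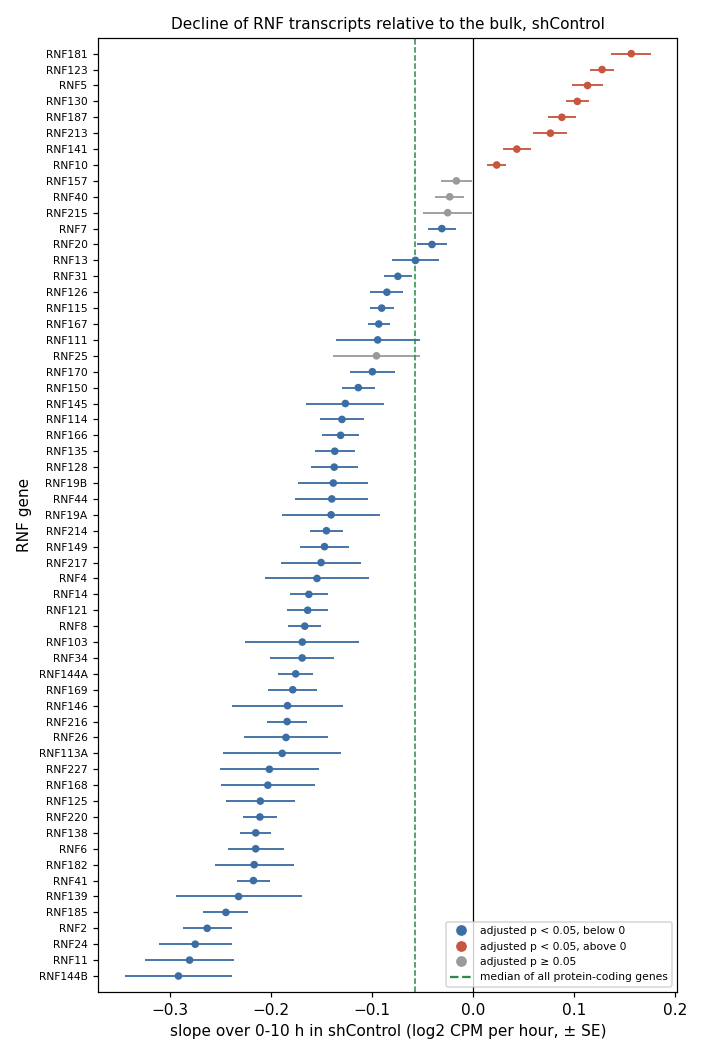
Slope over 0 to 10 h in shControl (horizontal axis, log2 CPM per hour, ± SE) of 59 of the RNF transcripts (vertical axis), coloured by the direction of the call, with the median of 10725 protein-coding genes as a dashed line. The members run from RNF144B at −0.291 to RNF181 at 0.156, and most lie left of the dashed line at −0.0575.

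The steepest declines belonged to ligases of several kinds. RNF144B, a RING-between-RING ligase, had a slope of −0.291 ± 0.053 (SE), RNF11, a small adaptor of NEDD4-type ligases, −0.280 ± 0.044, and RNF24, a membrane protein, −0.275 ± 0.036 per hour. RNF2, the catalytic subunit of Polycomb repressive complex PRC1 that ubiquitinates histone H2A, was at 19.4 and 16.4 CPM at 0 h, 10.5 and 10.3 CPM at 4 h and 3.87 and 3.14 CPM at 10 h in the 2 shControl libraries of each time, a slope of −0.263 ± 0.024 (adjusted p = 6.0e-09). Its libraries of 0, 4 and 10 h did not overlap, while those of 2 h, at 17.7 and 19.3 CPM, still overlapped those of 0 h.

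The members with slopes above 0 gained share while the bulk decayed. RNF181 was at 5.12 and 7.36 CPM in the shControl libraries of 0 h and at 17.1 and 16.1 CPM in those of 10 h, the highest slope of the family at 0.156 ± 0.020 (adjusted p = 4.3e-07). The other 7 were RNF123 (0.128), which targets the cell cycle inhibitor p27, RNF5 (0.113), RNF130 (0.103), RNF187 (0.088), RNF213 (0.077), a large ligase linked to moyamoya disease, RNF141 (0.043) and RNF10 (0.023). RNF5 differed between its shControl libraries of 0 h, at 8.80 and 14.6 CPM, and both lay below those of 10 h, at 24.6 and 24.1 CPM. The call of RNF10 (adjusted p = 0.0348) was lost without any 1 of 4 shControl libraries: the second of 0 h, either of 2 h or the first of 10 h (adjusted p = 0.0555 to 0.258). That of RNF141 was lost without the second of 10 h (adjusted p = 0.0568).

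The 3 members that act on ribosomes and translation each took a different course. RNF10, which ubiquitinates proteins of the small ribosomal subunit, stayed between 20.04 and 25.6 CPM in all 10 shControl libraries of 0 to 10 h. RNF14, a RING-between-RING ligase that clears factors trapped on stalled ribosomes, was at 20.8 and 22.8 CPM at 0 h, still at 18.5 and 20.5 CPM at 4 h, and at 7.74 and 8.05 CPM at 10 h, a slope of −0.162 ± 0.019 (adjusted p = 1.6e-07). RNF25, its partner in that pathway, was at 4.02 and 5.22 CPM at 0 h, 1.54 and 1.83 CPM at 4 h and 2.82 and 2.05 CPM at 10 h, and its slope of −0.095 ± 0.043 missed the threshold (adjusted p = 0.0501).

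**Figure D2:**
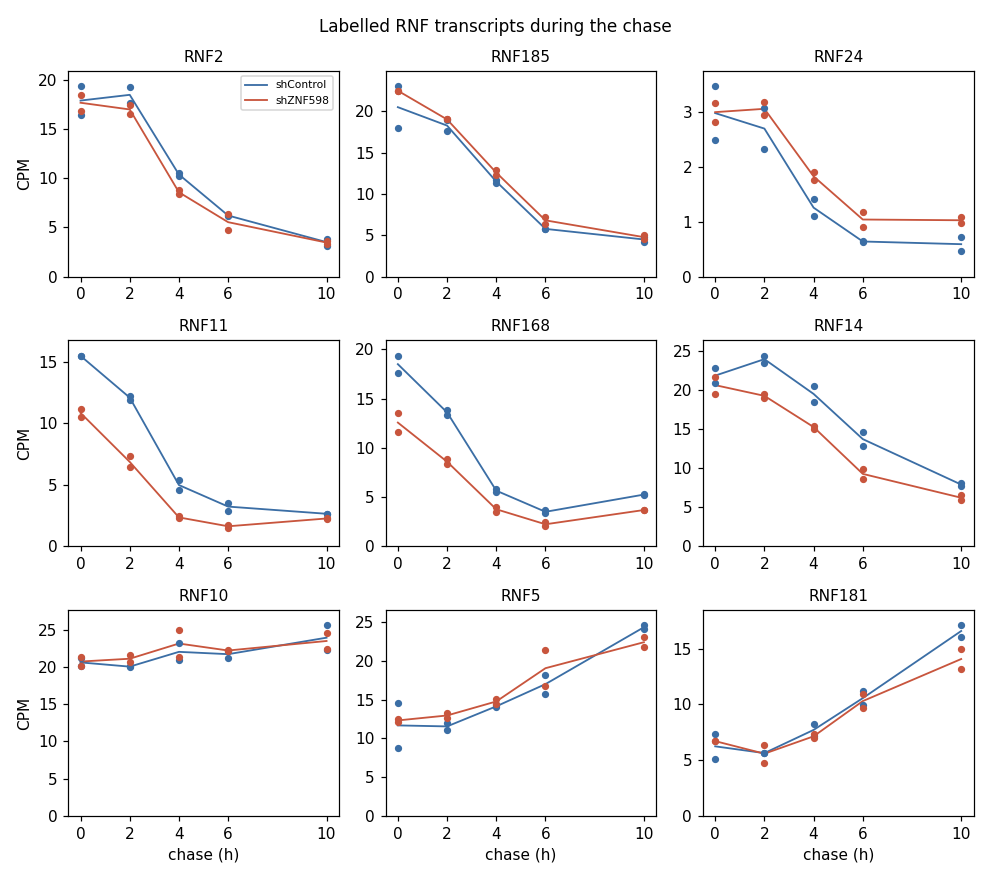
CPM (vertical axis, linear from 0) against hours of chase (horizontal axis) for 9 RNF transcripts in shControl (blue) and shZNF598 (red), where each point is a library and lines join the means of 2 libraries. RNF2, RNF185 and RNF24 decline, RNF11, RNF168 and RNF14 decline at a lower level in shZNF598, and RNF5 and RNF181 rise.

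Of the 10 members that act on chromatin and DNA damage, 9 fell and RNF40 did not pass, with a median slope of −0.172 per hour. This count, like those of the role lists below, stands beside 80% of all members and 52.5% of protein-coding genes called below 0. RNF8 and RNF168, which ubiquitinate histones in turn at DNA double-strand breaks, had slopes of −0.166 ± 0.016 and −0.203 ± 0.046, and RNF169, which binds the same marks, −0.178 ± 0.024. RNF138, which promotes resection of DNA ends, had a slope of −0.215 ± 0.015 (adjusted p = 1.5e-10). The partners RNF20 and RNF40 had slopes of −0.041 ± 0.015 and −0.023 ± 0.014, nearer to the bulk than the rest of the group. The call of RNF20 was lost without either shControl library of 10 h (adjusted p = 0.164 and 0.121). RNF4, the SUMO-targeted ligase, was called at −0.154 ± 0.052 but not without the second shControl library of 0 h (adjusted p = 0.0543).

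All 8 RING-between-RING members fell, with a median of −0.156 per hour, where 80% of all members and 52.5% of protein-coding genes fell. They ran from RNF144B to RNF31, the catalytic subunit of the linear ubiquitin assembly complex, at −0.074 ± 0.013. RNF216 was at −0.184 ± 0.020 and RNF144A at −0.175 ± 0.018. RNF19A, at −0.140 ± 0.048, was not called without the first shControl library of 0 h (adjusted p = 0.0657).

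The ligases of the endoplasmic reticulum membrane split. Of 8 members, 7 fell, with a median of −0.166 over the list, and RNF5 rose. Among all members 80% fell, and among protein-coding genes 52.5%. RNF5 and RNF185, close paralogs that work in degradation of proteins of the endoplasmic reticulum, lay at opposite ends, at 0.113 ± 0.015 and −0.244 ± 0.022. RNF139, which acts on regulators of sterol synthesis, had a slope of −0.232 ± 0.062, RNF26 of −0.185 ± 0.041, and RNF145, which promotes the turnover of HMG-CoA reductase, of −0.126 ± 0.039.

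Of 7 measured ligases with a protease-associated domain, 5 fell (RNF13, RNF128, RNF149, RNF150 and RNF167), RNF130 rose and RNF215 did not pass, with a median of −0.093. RNF13 had a small slope (−0.057 ± 0.023) that was not called without either shControl library of 10 h or the second of 2 h (adjusted p = 0.0515 to 0.308). The 4 members of the RNF114 family (RNF114, RNF125, RNF138 and RNF166) all fell, with a median of −0.171. These counts stand beside 80% of all members and 52.5% of protein-coding genes that fell. RNF111 fell as well, with a slope of −0.094 ± 0.042, and its call was lost without any of several libraries, 5 of shControl among them (adjusted p up to 0.285). The BAG6-linked ligases RNF115 and RNF126 fell with a median of −0.088, and RNF7, the RING subunit of cullin-5 ligases, had a slope of −0.031 ± 0.014 whose call (adjusted p = 0.046) was also lost without any of several libraries (adjusted p up to 0.170).

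Among the 6 signalling and trafficking members, 5 fell and RNF123 rose, with a median of −0.197. Here too 80% of all members and 52.5% of protein-coding genes fell. RNF41, which controls ERBB3 levels, had a slope of −0.217 ± 0.016, RNF220 of −0.211 ± 0.017, RNF146, which recognises poly(ADP-ribose) on axin, of −0.183 ± 0.055, and RNF34 of −0.169 ± 0.032.

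Other genes of the ubiquitin pathway are set beside all protein-coding genes, of which 52.5% were lower and 25.4% higher in shControl, with a median of −0.0575 per hour. Of 33 E1 and E2 enzymes, 26 fell and 4 rose in shControl, with a median of −0.101 per hour. The E2 enzymes UBE2W (−0.264) and UBE2D1 (−0.256) were the lowest, and the E1 enzyme UBA1 (0.186) was the highest. Of 26 partners of RNF proteins 17 fell and 6 rose, with a median of −0.084, from PCGF1 (−0.224), a PRC1 partner of RNF2, to ELOB (0.218), a subunit of cullin-5 ligases. Of 46 RING ligases outside the RNF symbols 35 fell and 4 rose, with a median of −0.120, from SIAH1 (−0.296) to RBX1 (0.165), the counterpart of RNF7 in other cullin ligases.

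The slopes in shZNF598 cells covered the same range. There 45 members were called below 0, where 49.3% of protein-coding genes were, and 6 above, where 25.3% were, and the median was −0.131 per hour against −0.0488 per hour over the 10725 genes. RNF10 and RNF141, called above 0 in shControl, were at 0.018 each and not called here (adjusted p = 0.112 and 0.259). The difference in slope, shZNF598 minus shControl, was the test of a changed decline. No member was called by edgeR, where 0.14% of protein-coding genes were, and none by DESeq2. At an unadjusted p under 0.05 there was 1 member, among 547 of the 10725 genes. It was RNF167, at 0.034 ± 0.015 per hour (edgeR adjusted p = 0.848).

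The slope differences of members had a median of 0.0101 per hour, against 0.0038 per hour over all protein-coding genes. Without the second shZNF598 library of 10 h the median of the members was −0.00634 per hour, and without the first shControl library of 10 h it was 0.0308 per hour. The highest were those of RNF24 (0.087 ± 0.050), RNF44 (0.069 ± 0.051) and RNF128 (0.054 ± 0.032) and the lowest those of RNF130 (−0.033 ± 0.016), RNF139 (−0.031 ± 0.086) and RNF181 (−0.030 ± 0.028). For the ribosome-linked members they were −0.006 ± 0.014 for RNF10, −0.026 ± 0.026 for RNF14 and 0.023 ± 0.060 for RNF25. The median SE of these differences over the members was 0.0307 per hour, with 2 libraries per time.

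**Figure D3:**
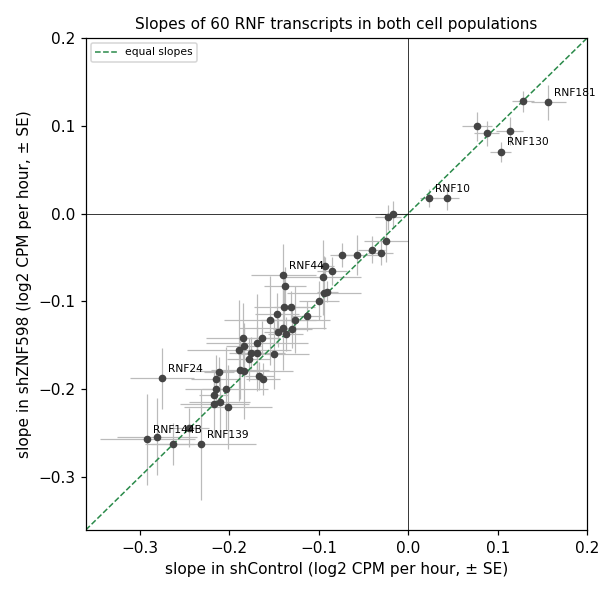
Slope over 0 to 10 h of each of 60 RNF transcripts in shControl (horizontal axis) and in shZNF598 (vertical axis), both in log2 CPM per hour with ± SE, and a dashed line where both are equal. The points follow that line from RNF144B at the lower left to RNF181 at the upper right, and no member was called different.

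Apparent half-lives followed the rule of the study's methods without its spike-in factor. A line was fitted to the log2 change from 0 h over 0-4, 0-6, 0-10 and 0-24 h, the best window was taken, and a value was kept when its R2 was above 0.9 and the half-life below 24 h in both populations. This held for 33 members (55.0%), against 3183 of 10725 protein-coding genes (29.7%). In shControl the median was 3.41 h over these 33 and 3.98 h over the 3183 genes, and in shZNF598 it was 3.39 h and 4.12 h. The shortest in shControl were RNF139 (1.58 h, and 1.77 h in shZNF598), RNF144B (1.72 h and 2.18 h), RNF113A (1.91 h and 1.68 h), RNF19A (1.92 h and 2.20 h) and RNF4 (1.93 h and 1.98 h). RNF2 had 4.06 h and 4.03 h. In shControl the best window was 0-4 h for 13 of the 33, 0-6 h for 15 and 0-10 h for 5, so the values ranked here may rest on unlike windows. RNF139, RNF19A and RNF4 were higher at 10 h than at 6 h in shControl, a step that windows ending at 4 or 6 h leave out. The value was longer in shZNF598 for 20 of the 33 members and for 1824 of the 3183 genes, and with TMM factors for 17 of 36 members. These are half-lives relative to the bulk and carry no test.

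The shape of the decline differed among members. The 10 h libraries were therefore compared with those of 6 h, a comparison chosen after the values were seen. In shControl 14 members were higher at 10 h than at 6 h, where 25.4% of protein-coding genes were, and 17 lower, where 24.8% were. In shZNF598 16 were higher, where 24.1% were, and 14 lower, where 22.9% were, so the shares lay close to those of all genes in both populations. Without the second shZNF598 library of 10 h the 16 became 10. No member was called in opposite directions, 12 were higher in both and 14 lower in both. No member differed between the populations in this step by edgeR, where 0.0186% of protein-coding genes were called, and DESeq2 was not run on it. At an unadjusted p under 0.05 there was 1 member, among 339 of the 10725 genes.

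Of the 48 falling members, 9 had turned up by 10 h. RNF103, RNF139, RNF145, RNF146, RNF168, RNF19A, RNF19B, RNF227 and RNF4 had in the median 25.4% of their 0 h level left at 4 h, 19.5% at 6 h and 35.2% at 10 h in shControl. In shZNF598, whose libraries did not choose them, the same 9 had 27.3%, 23.8% and 41.0% at those times, and 8 were called higher at 10 h. The share of all protein-coding genes chosen in the same way that did so was not counted. Only 0.0186% of protein-coding genes differed between the populations in this step. RNF4 was at 12.0 and 13.7 CPM at 0 h, 2.96 and 2.87 CPM at 6 h and 4.98 and 4.07 CPM at 10 h in shControl, and RNF168 and RNF146 had late steps of 0.58 ± 0.13 and 0.93 ± 0.18 on the log2 scale (adjusted p = 0.00083 and 0.0002).

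A second set of 14 falling members was called lower at 10 h than at 6 h in shControl. Their early course varied, from 55.5% to 119.5% of the 0 h level at 4 h. RNF115, RNF121, RNF13, RNF138, RNF14, RNF144A, RNF167, RNF170, RNF185, RNF2, RNF20, RNF220, RNF41 and RNF8 had in the median 96.8% of the 0 h level at 2 h, 76.9% at 4 h, 54.4% at 6 h and 35.4% at 10 h in shControl. In shZNF598 the values were 96.9%, 78.0%, 52.7% and 33.0%, and 13 of the 14 were called lower at 10 h than at 6 h. The matching share of all protein-coding genes was not counted here either. The late steps in shControl were −0.82 ± 0.15 for RNF2, −0.81 ± 0.14 for RNF220 and −0.79 ± 0.11 for RNF14 (adjusted p = 6.7e-05, 5.4e-05 and 5.0e-06). The other 25 falling members were called in neither direction and had 36.2% at 6 h and 36.7% at 10 h.

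The sign of the late step depends on the scale. Scaling by total counts lowers every 10 h value against 6 h by 0.405 on the log2 scale in shControl and 0.365 in shZNF598, which leaves 1 member higher and 31 lower in shControl, and 4 and 28 in shZNF598. At 24 h, with 1 library per population and fewer counts than in any other library, the median over the 9 was 57.6% of 0 h in shControl and 65.9% in shZNF598, and over the 14 it was 49.3% and 53.6%.

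**Figure D4:**
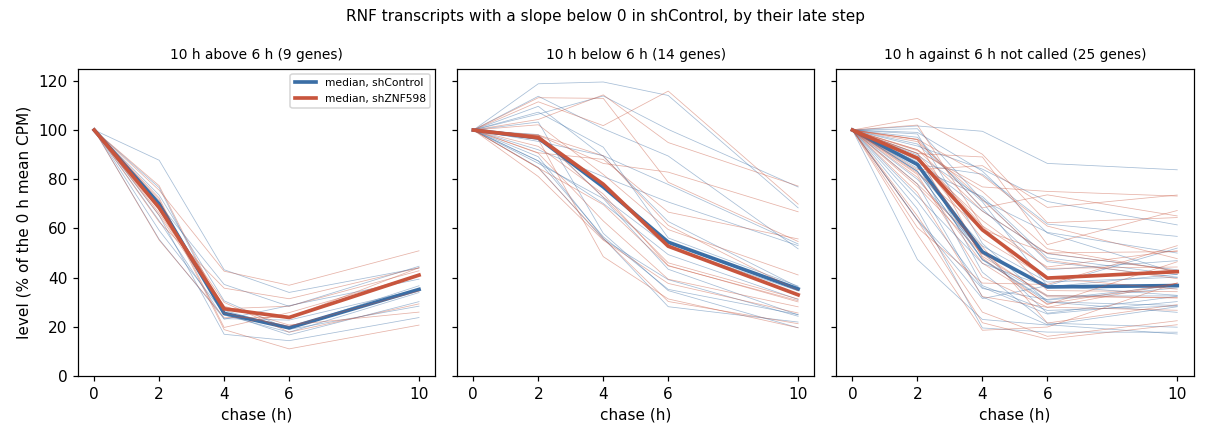
Level as a percentage of the 0 h mean CPM (vertical axis) against hours of chase (horizontal axis) for the 48 RNF transcripts with a slope below 0 in shControl, split by their step from 6 to 10 h in shControl, with thin lines for genes and thick lines for medians (shControl blue, shZNF598 red). In shControl the 9 genes on the left have lost most of their level by 4 h, with a median of 25.4%. The 14 in the middle have a median of 76.9% at that time, from 55.5% to 119.5%.

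Knockdown of ZNF598 went with lower RNF11 and RNF168 at the start of the chase. At 0 h RNF11 was at 15.5 CPM in both shControl libraries and at 11.2 and 10.5 CPM in the shZNF598 libraries, a log2 difference of −0.51 ± 0.12 (adjusted p = 0.0486). RNF168 was at 19.4 and 17.6 CPM against 13.5 and 11.6 CPM, a difference of −0.56 ± 0.11 (adjusted p = 0.0197). The populations did not overlap for either gene, but the share of all protein-coding genes without overlap at 0 h was not counted. In such bulk samples a lower level can come from less RNA per cell or from fewer cells that express the gene, and these cannot be told apart. At 0 h these 2 members were called lower, where 0.597% of protein-coding genes were. None was higher by edgeR, where 0.0932% were, nor by DESeq2. In either direction 5 members passed an unadjusted p under 0.05 by edgeR, as did 1246 of the 10725 protein-coding genes. Neither call was firm: RNF168 was lost without the first shControl library of 0 h (adjusted p = 0.0728) or without either shZNF598 library of 0 h (0.108 and 0.543), and RNF11 without most single libraries (adjusted p up to 0.617).

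Averaged over the 5 times from 0 to 10 h, which adds 16 libraries to the same 4, both differences remained and were more precise. RNF11 differed by −0.73 ± 0.06 (adjusted p = 2.63e-09) and RNF168 by −0.59 ± 0.06 (adjusted p = 2.49e-08). RNF11 was at 56.8% of shControl at 2 h, 47.1% at 4 h and 85.5% at 10 h, where the libraries were at 2.64 and 2.63 CPM in shControl and at 2.19 and 2.32 CPM in shZNF598. RNF168 stayed between 63.2% and 70.1% of shControl at all 5 times. In both genes the shZNF598 libraries lay below the shControl libraries at every time from 0 to 10 h. This held for no other member and for 3.49% of protein-coding genes, so the share of members was close to that of all genes. In the single libraries of 24 h RNF11 was at 97.9% and RNF168 at 69.9% of shControl.

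Over the average level 14 members were higher and 5 lower, that is 31.7% of the members, where 27.7% of protein-coding genes were called. By direction, 23.3% of members and 15.6% of protein-coding genes were higher, and 8.33% of members and 12.1% of protein-coding genes were lower. The share of members called in either direction was thus close to that of all genes, and the split by direction was not tested. The median over members was 0.0793 on the log2 scale, against 0.0248 over the 10725 genes.

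**Figure D5:**
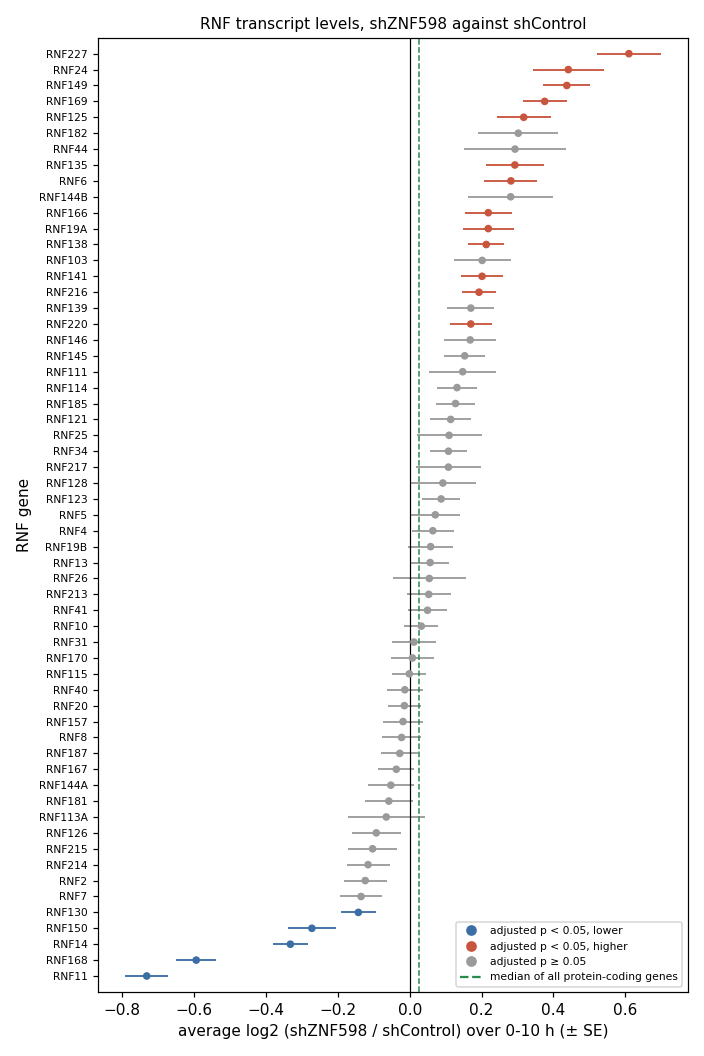
Average log2 difference over 0 to 10 h, shZNF598 against shControl (horizontal axis, ± SE), for 59 of the RNF transcripts (vertical axis), coloured by the call, with the median of 10725 protein-coding genes as a dashed line. RNF11 and RNF168 lie farthest to the left, at −0.73 and −0.59, and RNF227 farthest to the right, at 0.61.

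The other lower members were RNF14, RNF150 and RNF130. RNF14 did not differ beyond the spread at 0 h (−0.08 ± 0.11) and lay below shControl without overlap from 2 h to 10 h, at 19.0 and 19.5 CPM against 23.5 and 24.4 CPM at 2 h and at 9.87 and 8.66 CPM against 12.8 and 14.6 CPM at 6 h, for an average of −0.33 ± 0.05 (adjusted p = 3.14e-05). The share of all protein-coding genes without overlap over those times was not counted. RNF150 differed by −0.27 ± 0.07 (adjusted p = 0.00494). RNF130 differed by −0.14 ± 0.05 (adjusted p = 0.0355), and its call was lost without most single libraries (adjusted p up to 0.0878). The remaining ribosome-linked members were not called: RNF10 differed by 0.03 ± 0.05 and RNF25 by 0.11 ± 0.09.

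Among the higher members RNF227 stood first, at 3.68 and 3.38 CPM in shZNF598 against 2.33 and 2.56 CPM in shControl at 0 h and at 0.61 ± 0.09 on average (adjusted p = 2.11e-05). It was followed by RNF24 (0.44 ± 0.10, adjusted p = 0.00255), RNF149 (0.44 ± 0.07, adjusted p = 3.45e-05) and RNF169 (0.38 ± 0.06, adjusted p = 9.89e-05). RNF125, which marks the RNA sensor RIG-I for degradation, was at 0.32 ± 0.08, RNF135, which activates RIG-I, at 0.29 and RNF6 at 0.28. The shZNF598 libraries lay above the shControl libraries at all 5 times for 6 members, where 3.41% of protein-coding genes did: RNF125, RNF149, RNF166, RNF169, RNF216 and RNF227. RNF166 and RNF216 were singled out after their values were seen. A fit without a whole replicate number leaves 1 library per group. It therefore took hours as a factor shared by both populations in place of group means, so model and libraries changed together. Without the 10 libraries of either replicate number RNF24, RNF135 and RNF130 were no longer called, RNF6 and RNF150 were lost without number 1 and RNF125 without number 2 (adjusted p up to 0.277), while RNF11, RNF168, RNF14, RNF227, RNF149 and RNF169 were called both times.

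By role, 3 of the 4 members of the RNF114 family were higher (RNF125, RNF138 and RNF166), with a median of 0.216. Over all protein-coding genes 15.6% were higher and 12.1% lower, with a median of 0.0248. None of the 8 ligases of the endoplasmic reticulum membrane was called in either direction (edgeR), where their median was 0.121. Of the 10 chromatin and DNA damage members RNF138, which is in both lists, and RNF169 were higher and RNF168 lower. Of the 33 E1 and E2 enzymes 4 were higher and 3 lower, of the 26 partners 3 and 3, and of the 46 other RING ligases 8 and 5. Of the partners, UBL4A (−0.86) and BAG6 (−0.41), which form 1 complex with GET4 (0.23), were the lowest, while the BAG6-linked ligases RNF115 and RNF126 were not called.

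Pumilio proteins bind the element TGTANATA in 3′ untranslated regions, and this element and the AU-rich nonamer TTATTTATT were searched on the sense strand after the slopes were seen. The Pumilio letters occurred in the 3′ untranslated region of 26 of the 60 members (43.3%) and of 3381 of the 10725 protein-coding genes (31.5%). Members with a match had a median slope of −0.177 per hour and a median region of 2483 nt, and the 34 without one had −0.113 per hour and 977 nt. Over all genes the medians were −0.0856 and −0.0393 per hour, so matches, length and slope moved together and their parts were not tested. Across the 60 members the rank correlation of slope with length of the region was −0.305, and across the 10725 genes, which are not independent replicates, it was −0.289. The nonamer occurred in 4 members (RNF115, RNF182, RNF215 and RNF24; 6.67%) and in 1051 genes (9.80%).

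A site each of 4 falling members, of RNF168 and RNF4 that turned up late, and of 2 members that rose is shown so that matches of both directions can be compared, with the 8 letters of the element in capitals. They are 28 bases each on the transcribed strand, from GENCODE release 44 transcripts on GRCh38, and a match is a description, not a shown binding site.
RNF2, chr1:185101684-185101711, plus strand: gtctagtcatTGTAAATAtttatctgtc
RNF24, chr20:3932969-3932996, minus strand: cacttggaatTGTAGATAgtttcaggaa
RNF41, chr12:56204160-56204187, minus strand: acagaagataTGTATATAtctttttcct
RNF6, chr13:26213289-26213316, minus strand: ataccataggTGTATATAtaggtatata
RNF168, chr3:196469066-196469093, minus strand: tatatttaggTGTAAATAtatcacatat
RNF4, chr4:2515732-2515759, plus strand: cttttttcaaTGTACATAgttcaactct
RNF213, chr17:80393679-80393706, plus strand: ttctgaaccaTGTACATAcatgttctga
RNF187, chr1:228494729-228494756, plus strand: catccttgtgTGTAGATAaattagtcga
RNF213 and RNF187 carry the letters and gained share, so a match alone did not go with a slope below 0 in every member.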

How the data were processed

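BRIC-Seq libraries of HEK293T cells (24 h of BrU, then chase) were sequenced as single-end reads. The authors deposited raw counts per transcript for each library, made by mapping trimmed reads with STAR 2.7.0a to hg38 and counting them with featureCounts on GENCODE transcripts, with reads counted in every isoform they overlap. The deposited length column is in codons and was not used for levels per kilobase. Those took the transcript lengths of GENCODE release 44, with which the column agreed for all 209601 transcripts that matched including the version. Transcripts were named and given coordinates by GENCODE release 44 on GRCh38, where 98.4% of the 227264 transcripts matched by identifier.

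The members and gene lists were chosen with earlier results of these data known. Counts of the 20 libraries of 0 to 10 h were fitted with edgeR 4.0.16 (R 4.3.3; TMM scaling, quasi-likelihood F test, mean of at least 1 CPM, 79513 transcripts), and p-values were adjusted by Benjamini-Hochberg over all transcripts tested at a threshold of 0.05. Level differences came from a model of group means and slopes from a line in hours per population. CPM values of single libraries and percentages of 0 h or of shControl are TMM-scaled. Mean CPM over libraries, used for the filter, the range of the members, the levels per kilobase and the markers, is scaled by library totals alone. Levels share libraries with slopes and with the 10 h against 6 h step, so these are not independent. The SE is the log2 estimate divided by the root of F. The spike-in RNAs were not used here, so slopes are relative to the bulk. Half-lives used DESeq2 1.42.0.

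Named in each comparison were up to 8 called members per direction with the same direction in both replicate numbers, the 3 highest and 3 lowest, RNF10, RNF14 and RNF25, and for slopes the role lists. 1 member enters every fit and count but is not reported here by name. Alternatives were other scalings, filters, windows, tools and left-out libraries, and the fit was tested on simulated counts.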

Additional observations from a re-analysis of the deposited data

How the results depend on the processing

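Calls among the members rest on 2 libraries per time, relative scaling without spike-ins and transcripts that share reads, and the cause of the changes below was not tested. Of the summary results 483 were taken as unchanged and 88 as moved. Medians were judged by the spread. Counts of called members were judged by their ratio to the main count and not by the spread. A fall from 48 to 36 members with a slope below 0 in shControl therefore counts as unchanged. Of the values of single members 3280 kept direction and side, 218 were no longer called, 23 became called and 41 changed sign.

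At 0 h the members called lower were 1 with RLE scaling, 1 with no filter, 0 with the 0 h libraries alone and 0 at an adjusted p under 0.01. The average level had 9 members higher at an adjusted p under 0.01. With a mean of at least 5 CPM, which leaves fewer members, it had 7 higher and a median of 0.0471, the slopes had 29 members lower and a median of −0.156 in shControl and 28 and −0.143 in shZNF598, and RNF10 was at −0.00465 at 0 h, −0.0027 per hour in shControl and −0.00575 per hour in shZNF598. At 0 h RNF10 was at −0.0285 and RNF25 at −0.00385 with the 0 h libraries alone.

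Total-count scaling gave medians of 0.0104 at 0 h, 0.062 for the average, −0.212 for the shControl slope with 4 members higher and −0.193 for the shZNF598 slope with 2 higher. With it the 10 h against 6 h step had 1 member higher and 31 lower in shControl and 4 higher and 28 lower in shZNF598. RNF10 was then at −0.0398 and RNF25 at −0.0145 at 0 h, RNF10 at −0.0467 (shControl slope), −0.0454 (shZNF598 slope) and 0.00123 (slope difference), and RNF141 at −0.0273 (shControl slope).

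The median slope in shControl and in shZNF598 was −0.131 and −0.121 with RLE scaling, −0.134 and −0.124 with 1 transcript per gene, −0.130 and −0.118 with DESeq2, −0.129 and −0.113 over 2-10 h, and −0.137 in shControl with no filter.

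Over 0-4 h 2 members were higher in each population, the medians were −0.152 and −0.156, the shControl slope was 0.0535 for RNF13, 0.0363 for RNF20, 0.0732 for RNF215 and 0.0182 for RNF40, and the slope difference was 0.0251 for RNF10 and 0.0401 for RNF139. Over 0-6 h the medians were −0.223 and −0.191, the same 4 genes had shControl slopes of 0.0266, 0.00393, 0.0553 and 0.0199, and RNF10 had a slope difference of 0.00413.

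Over 0-24 h 1 member was higher and 12 lower in shControl (median −0.0365) and 2 higher and 7 lower in shZNF598 (median −0.0261). The shControl slope was then 0.022 for RNF111, 0.00283 for RNF13, −0.0197 for RNF141, −0.0137 for RNF187, 0.00707 for RNF20 and 0.00918 for RNF25, the shZNF598 slope −0.00708 for RNF10, −0.00592 for RNF187 and 0.0203 for RNF25, and the slope difference of RNF128 −0.0151. Half-lives over a fixed 0-10 h window were kept for 10 members (5.62 h and 5.84 h), and with TMM factors the medians were 3.53 h and 3.54 h.

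Leaving out libraries gave at 0 h 0 to 0 members higher, 0 to 2 lower and a median of 0.0436 to 0.0836. The average level had 5 to 19 higher, 3 to 6 lower and a median of 0.0656 to 0.104, with the 5 and the 3 reached without replicate 1 of every group. The slopes had 6 to 8 higher, 36 to 49 lower and −0.166 to −0.137 in shControl, 6 to 7, 34 to 46 and −0.146 to −0.121 in shZNF598, and the slope difference 0 to 0 in either direction with a median of −0.00634 to 0.0308. The late step had 10 to 14 higher and 14 to 17 lower in shControl and 10 to 17 and 13 to 14 in shZNF598, where the 10 were without the second shZNF598 library of 10 h. Half-lives were 3.10 h to 3.25 h and 3.40 h to 3.59 h, for 27 to 33 members. Signs changed at 0 h for RNF25 (−0.143 to 0.233) and RNF10 (−0.0376 to 0.0526) and in the slope difference for RNF10 (−0.0119 to 0.00309), RNF139 (−0.110 to 0.0185) and RNF25 (−0.0373 to 0.0823), none of them called.

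Replicate numbers were not used as pairs in the main fits. The deviations of same-numbered libraries correlated between −0.306 and 0.429 over 45 pairs of groups, 12 of them over 0.1. Between the 2 populations at the same time they correlated between −0.197 and 0.325 over 5 pairs, 3 of them over 0.1. With a replicate block the average level had 15 members higher and 5 lower, 0 h had 2 lower, the shControl slope 8 higher and 48 lower, the shZNF598 slope 6 and 45, the slope difference 0, and the late step 15 and 17 in shControl and 17 and 15 in shZNF598. At 0 h no fit without a whole replicate number was run, since it leaves no residual degrees of freedom. For the average level such a fit took hours as a factor shared by both populations in place of group means.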

Other observations

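Beside the member transcripts, 295 other transcripts of RNF genes passed the filter. They share reads with the members, and their shControl slopes mostly had the member's sign: 153 of 159 other protein-coding transcripts, 37 of 40 annotated as targets of nonsense-mediated decay, 39 of 40 without a defined coding sequence and 55 of 56 with a retained intron. The medians were −0.132, −0.0978, −0.159 and −0.0703 per hour. The 6 protein-coding exceptions were transcripts of RNF13, chosen here after their values were seen, with slopes of 0.038 to 0.051 per hour, all called above 0 by edgeR (adjusted p = 0.011 to 0.0488), where the member transcript of RNF13 had −0.057.

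The chase time of the lowest mean also divided the family. In shControl 32 members were lowest at 10 h, 18 at 6 h, 2 at 4 h, 5 at 2 h and 3 at 0 h, and in shZNF598 28, 20, 4, 3 and 5 were. Of the 24 RNF genes below 1 CPM, RNF113B, RNF17, RNF186, RNF212 and RNF39 had no counts in a protein-coding transcript in any library of 0 to 10 h.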
